A study of Mus musculus with 20 samples.

Results

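The genes described here encode 10 inhibitors of mitogen-activated protein kinase (MAPK) signaling, the dual-specificity phosphatases Dusp1, Dusp2, Dusp4, Dusp5, Dusp6, Dusp7, Dusp10 and Dusp16 and the Sprouty proteins Spry1 and Spry2. They were taken by symbol from the 23992 gene symbols measured, and all 10 were found in every library. RNA-seq was performed on mouse regulatory T cells (Tregs), sorted by GFP from spleen and lymph node of B6-Foxp3EGFP mice, and on CD8+ T cells, isolated with a kit from C57BL/6J mice per the protocol, although the sample records give C57BL/6N as the strain of every library. Each cell type was left unstimulated, or received 200 nM IL-2 or 200 nM IL-2-REH for 90 min or 4 hr. IL-2-REH is a partial agonist, an IL-2 variant with substitutions at its contact with the common gamma chain of the receptor. Each of the 5 Treg groups had 3 libraries and each of the 5 CD8+ groups had 1 library, so the CD8+ data carry no replicate error. The unstimulated libraries are labelled as time 0, so that cytokine and time in culture cannot be told apart in any comparison with them, whereas IL-2 and IL-2-REH were compared at the same dose and time. The labels do not say whether replicates came from separate mice, so p-values measure the spread between these libraries only.

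MAPK cascades pass signals from receptors through RAS and RAF to ERK, and from stress and cytokine receptors to p38 and JNK. Dual-specificity phosphatases end these signals by removing phosphate from the threonine and tyrosine that activate a MAPK, and many are themselves transcribed in response to the kinases they switch off. Sprouty proteins act further upstream, where they restrain the activation of RAS and RAF. In T cells, the IL-2 receptor engages the RAS-ERK branch beside JAK and STAT5, which makes this family part of the feedback on cytokine and antigen receptor signals.

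The promoters of Dusp1 and Dusp2, the members called over all libraries, are shown first, with those of Dusp5 and Dusp10 for comparison. RefSeq promoter entries of GRCm38.p6 were matched for 9 of the 10 genes, all but Dusp4. For Dusp7 and Dusp16, the tabulated start was not that of the transcript measured here. Each line gives the 250 bases before the start, 5′ to 3′ on the strand of the gene, with matches to the searched motifs in capitals. These were the cAMP response element (CRE) TGACGTCA, its half-site TGACG, the E-box CACGTG and the CArG box, which is bound by serum response factor, searched on both strands.
Dusp1 (chr17:26508473-26508722, minus strand): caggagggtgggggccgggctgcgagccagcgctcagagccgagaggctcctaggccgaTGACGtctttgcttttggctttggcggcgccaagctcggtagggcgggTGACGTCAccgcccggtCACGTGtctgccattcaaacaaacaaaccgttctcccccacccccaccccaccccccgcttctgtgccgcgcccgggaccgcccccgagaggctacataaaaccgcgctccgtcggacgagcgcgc
Dusp2 (chr2:127335909-127336158, plus strand): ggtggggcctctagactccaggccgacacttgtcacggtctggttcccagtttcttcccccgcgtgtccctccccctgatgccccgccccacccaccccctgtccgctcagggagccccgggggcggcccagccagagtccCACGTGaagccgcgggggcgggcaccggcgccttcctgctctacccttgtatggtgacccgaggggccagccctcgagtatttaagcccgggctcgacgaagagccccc
Dusp5 (chr19:53528895-53529144, plus strand): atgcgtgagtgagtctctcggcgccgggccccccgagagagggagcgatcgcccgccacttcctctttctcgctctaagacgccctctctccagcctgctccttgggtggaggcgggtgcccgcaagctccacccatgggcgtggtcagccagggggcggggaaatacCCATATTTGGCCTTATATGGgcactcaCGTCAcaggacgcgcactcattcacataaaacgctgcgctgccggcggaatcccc
Dusp10 (chr1:184034131-184034380, plus strand): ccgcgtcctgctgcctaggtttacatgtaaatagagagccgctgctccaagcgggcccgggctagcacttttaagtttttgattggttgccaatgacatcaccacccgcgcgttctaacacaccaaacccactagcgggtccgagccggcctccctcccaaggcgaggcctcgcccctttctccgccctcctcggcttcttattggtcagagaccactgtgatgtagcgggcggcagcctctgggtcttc
Of these promoters, Dusp1 held a full CRE from -143 to -136 and an E-box from -126 to -121 relative to the start. Dusp2 held an E-box from -109 to -104. Dusp5 held 2 adjacent CArG boxes, from -82 to -73 and from -72 to -63, and Dusp10 held no match. Half-sites of the CRE, which every full CRE contains, were found for Dusp1, Dusp5 and Dusp16. Among all 32851 tabulated promoters, 1.55% held the full CRE, 17.8% the half-site, 6.02% the E-box and 1.47% the CArG box. None of the 9 promoters (0 of 9) held the STAT-type GAS letters TTCNNNGAA (7.02% of all promoters), the AP-1 letters TGANTCA (6.75%), the ETS letters CCGGAAG (6.91%) or TATAAA (12.4%). A match is a description of letters, and binding was not measured.

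Reads on genes ranged from 20201392 to 63903764 in the Treg libraries and from 38201667 to 45189835 in the CD8+ libraries, and a member had between 17 and 39861 reads in a library. The labels of the cell types held in the RNA. RPKM, the read count of a gene per length of its exons and per depth of its library, lay between 65.2 and 252 for Foxp3 in Tregs and between 0.482 and 0.999 in CD8+ T cells, and Cd8a lay between 0.0879 and 1.84 in Tregs and between 103 and 256 in CD8+ T cells. Unstimulated Treg replicate 1 stood apart from the others of its group, with a mean correlation to them of 0.927 compared with 0.956 and 0.957, and values without it are given below where it moved them most. Replicate 1 was also the lowest in each stimulated group. At 90 min, it had 0.963 with IL-2 (others 0.972 and 0.974) and 0.960 with IL-2-REH (0.974 and 0.973). At 4 hr, it had 0.942 with IL-2 (0.945 and 0.944) and 0.941 with IL-2-REH (0.955 and 0.955). Unstimulated replicate 3 held Hspa1a, a heat shock chaperone, at 400.2 RPKM, compared with 1.87 and 18.4 in replicates 1 and 2. The summed RPKM of 6 erythroid markers ranged from 7.74 to 231 among unstimulated Tregs, that of 5 macrophage or monocyte markers from 14.1 to 62.9, and that of 6 B cell markers from 2.41 to 17.1. No marker was at 0 in all 3 of these libraries. Across the 4 stimulated Treg groups, the macrophage sum ranged from 9.15 to 37.7, the erythroid sum from 5.33 to 199 and the B cell sum from 1.82 to 18.0. Their part in the results was not tested.

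In unstimulated Tregs, Dusp1 had the highest level of the 10 genes, with 250.02 ± 56.5 RPKM (SD, n = 3), and no library of another member reached its lowest value. It was followed by Dusp5 (87.5 ± 38.7), Dusp2 (81.7 ± 31.4), Dusp4 (67.6 ± 54.4) and Dusp10 (59.3 ± 53.6), whose ranges overlapped, so that their order is not larger than the spread between replicates. Spry1 (11.7 ± 1.04), Dusp6 (9.12 ± 2.55) and Dusp7 (8.07 ± 3.38) followed. The range of Dusp6 overlapped those of Spry1 and Dusp7, while Spry1 lay above Dusp7 in every library. Dusp16 (2.52 ± 1.92) overlapped Dusp7 through replicate 1, and Spry2 (0.692 ± 0.274) was below Dusp16 in every library. RPKM is scaled to the exon length of the transcript used, so levels of different genes compare only as far as that length fits the RNA. The lengths ran from 1155 bases for Dusp5 to 5112 for Dusp16, and their fit was not tested.

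**Figure D1:**
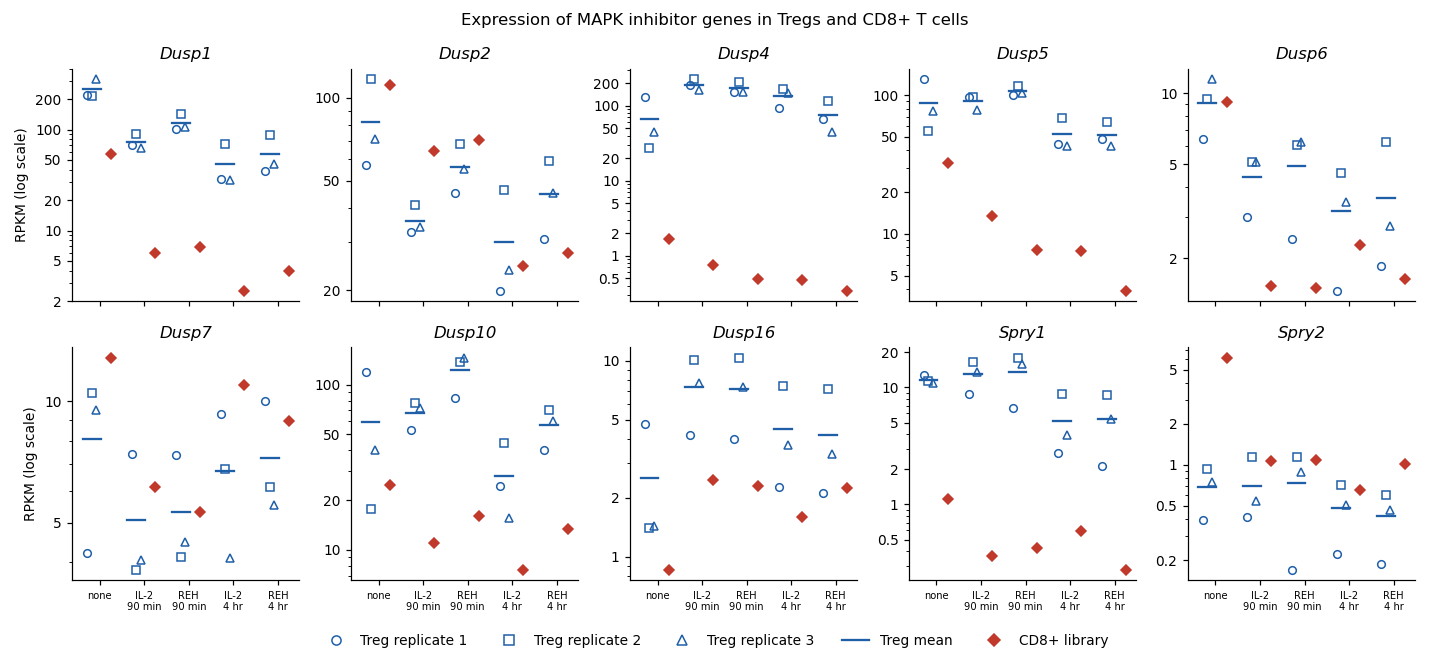
RPKM on a log axis for each of the 10 genes in each group, with open blue symbols for the 3 Treg replicates, a blue line for their mean and a red diamond for the single CD8+ library (none: unstimulated; REH: IL-2-REH). The 3 unstimulated Treg libraries sit between 214 and 315 for Dusp1, above every other library, and the CD8+ libraries of Dusp4 sit at 1.68 or below while no Treg library is under 27.7.

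Dusp1, an immediate early gene whose nuclear product acts on p38, JNK and ERK, was lower after stimulation than before it in every Treg group. Its level was 221, 214 and 315 RPKM in unstimulated replicates 1 to 3. With IL-2, it was 69.8, 90.3 and 65.0 at 90 min and 32.1, 72.2 and 31.4 at 4 hr. With IL-2-REH, it was 101, 144 and 105 at 90 min and 38.5, 88.3 and 46.0 at 4 hr. No stimulated library overlapped the unstimulated ones, and replicate 2 was the highest library in each stimulated group. Dusp1 fell by 1.60 ± 0.34 (SE) on the log2 scale with IL-2 at 90 min (edgeR quasi-likelihood test with Benjamini-Hochberg adjustment over 15009 genes, adjusted p = 0.0447) and by 2.45 ± 0.35 at 4 hr (edgeR, adjusted p = 0.00337). With IL-2-REH, it fell by 2.15 ± 0.35 at 4 hr (edgeR, adjusted p = 0.0240). At 90 min, the log2 fold change with IL-2-REH was -0.96 ± 0.34, which did not pass the test (edgeR, adjusted p = 0.393). The 3 calls were lost when only the groups compared entered the fit (edgeR, adjusted p = 0.0725, 0.0800 and 0.158) and when replicate 3 was left out of every group (edgeR, adjusted p = 0.999, 0.266 and 0.984), while the log2 fold changes remained negative. Leaving out replicate 2 or unstimulated replicate 3 also ended the calls at 90 min with IL-2 (edgeR, adjusted p = 0.139 and 0.224) and at 4 hr with IL-2-REH (edgeR, adjusted p = 0.128 and 0.102), and leaving out unstimulated replicate 2 ended the former (edgeR, adjusted p = 0.0825).

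Dusp2, a nuclear phosphatase found mainly in lymphoid cells, was also lower with IL-2. Its level was 57.0, 117 and 70.9 RPKM in unstimulated Tregs. The libraries with IL-2 held 32.5, 40.8 and 34.1 at 90 min and 19.9, 46.3 and 23.7 at 4 hr, which did not overlap the unstimulated range at either time. Those with IL-2-REH held 45.3, 68.1 and 55.1 at 90 min and 30.6, 59.0 and 45.2 at 4 hr, and both groups overlapped the unstimulated range. Dusp2 fell by 1.37 ± 0.31 on the log2 scale with IL-2 at 4 hr (edgeR, adjusted p = 0.0363). Its log2 fold change at 90 min, -0.999 ± 0.31, passed the test only in the fit with the replicate number as a block (edgeR, adjusted p = 0.1797 without the block and 0.00639 with it), with DESeq2 (adjusted p = 0.0413) and in fits that left out replicate 1 of every group or unstimulated replicate 1. Its log2 fold change with IL-2-REH at 4 hr, -0.83 ± 0.31, passed with the block (edgeR, adjusted p = 0.244 without it and 0.0146 with it). The call at 4 hr with IL-2 was lost without unstimulated replicate 2 or 3 (edgeR, adjusted p = 0.152 and 0.0959), without replicate 2 or 3 of every group (edgeR, adjusted p = 0.263 and 0.606), and with only the groups compared (edgeR, adjusted p = 0.196).

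Dusp4, whose nuclear product acts on ERK and JNK, had a different pattern, being highest at 90 min. Its level was 129.6, 27.7 and 45.5 RPKM in unstimulated Tregs, where replicate 1 was far above the other libraries. With IL-2, it was 189.8, 227 and 160.4 at 90 min and 92.6, 165.2 and 147 at 4 hr. With IL-2-REH, it was 151, 207 and 153 at 90 min and 66.7, 114 and 44.3 at 4 hr. Both 90 min groups lay above all unstimulated libraries, and both 4 hr groups overlapped them. The log2 fold changes at 90 min, 1.56 ± 0.51 for IL-2 and 1.39 ± 0.51 for IL-2-REH, did not pass the test over all 15 libraries (edgeR, adjusted p = 0.204 and 0.396), although DESeq2 called the former (adjusted p = 0.0395). Without unstimulated replicate 1, they were 2.59 ± 0.41 and 2.42 ± 0.41 and passed it (edgeR, adjusted p = 0.00178 and 0.00256), as did the change with IL-2 at 4 hr, 1.99 ± 0.40 (edgeR, adjusted p = 0.00976). Over all fits that left out replicates, the 90 min changes ranged from 0.99 to 2.67 (IL-2) and from 0.80 to 2.55 (IL-2-REH). Neither was called without unstimulated replicate 2 or 3. At 4 hr of IL-2-REH, the fold change of Dusp4 on the log2 scale was 0.036 ± 0.50 with all libraries and 1.06 ± 0.38 without unstimulated replicate 1 (edgeR, adjusted p = 0.982 and 0.117).

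Dusp5, a nuclear phosphatase specific for ERK, was 130.4, 55.3 and 76.9 RPKM in unstimulated Tregs. With IL-2, it was 97.1, 96.5 and 78.2 at 90 min and 44.3, 68.6 and 43.3 at 4 hr. With IL-2-REH, it was 101, 117 and 103 at 90 min and 48.0, 64.3 and 42.8 at 4 hr. All 4 stimulated groups overlapped the unstimulated range, and both 4 hr groups lay below both 90 min groups. No comparison with unstimulated cells passed the test over all libraries, with log2 fold changes from -0.82 to 0.38. Without unstimulated replicate 1, Dusp5 was higher with IL-2-REH at 90 min (log2 fold change 0.90 ± 0.24, edgeR, adjusted p = 0.0270) and lower with IL-2-REH at 4 hr than at 90 min (log2 fold change -1.21 ± 0.21, edgeR, adjusted p = 0.0365). With all libraries, the change between these times was -1.20 ± 0.31, which did not pass with edgeR (adjusted p = 0.248) and passed with DESeq2 (adjusted p = 0.0219).

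Dusp6 and Dusp7 encode cytoplasmic phosphatases that act on ERK. Dusp6 was 6.43, 9.44 and 11.5 RPKM in unstimulated Tregs. Libraries with IL-2 had 2.98, 5.12 and 5.14 at 90 min and 1.45, 4.58 and 3.47 at 4 hr. Libraries with IL-2-REH had 2.41, 6.07 and 6.24 at 90 min and 1.84, 6.20 and 2.73 at 4 hr. No stimulated library reached the unstimulated range, and replicate 1 was the lowest library of each group. The log2 fold changes at 4 hr were -1.47 ± 0.52 for IL-2 and -1.37 ± 0.52 for IL-2-REH. These passed only where replicates were matched or replicate 1 was left out of every group, with adjusted p = 0.165 and 0.257 in the edgeR fit without the block and 0.00558 and 0.0149 in the edgeR fit with the replicate block. The annotation of Dusp6 overlaps the gene Gm34921, and whether strand was used in counting is not given in the sources used here. Dusp7 was 4.21, 10.5 and 9.51 RPKM in unstimulated Tregs and ranged from 3.83 to 10.01 in the stimulated groups, which overlapped the unstimulated range in every case. Its log2 fold changes ranged from -0.53 to -0.12, and none of these 4 passed the test (edgeR, adjusted p from 0.530 to 0.923).

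Dusp10 and Dusp16 encode phosphatases that act mainly on p38 and JNK. Dusp10 was 119.8, 17.8 and 40.4 RPKM in unstimulated Tregs, again with replicate 1 the highest. With IL-2, it was 53.3, 77.6 and 72.3 at 90 min and 24.3, 44.4 and 15.7 at 4 hr. With IL-2-REH, it was 82.8, 138 and 145 at 90 min and 40.4, 70.4 and 60.1 at 4 hr. Every group overlapped the unstimulated range, and the 90 min group with IL-2-REH lay above the 90 min group with IL-2. Over all libraries, the log2 fold change with IL-2-REH at 90 min was 1.11 ± 0.59 (edgeR, adjusted p = 0.479), and without unstimulated replicate 1 it was 2.28 ± 0.51 (edgeR, adjusted p = 0.0117). The other Dusp10 changes also rested on that library, and without it none passed. They moved from 0.26 to 1.42 with IL-2 at 90 min, from -1.15 to 0.0073 with IL-2 at 4 hr, and from -0.16 to 0.996 with IL-2-REH at 4 hr, so that the direction at 4 hr was not settled. Dusp16 was 4.74, 1.39 and 1.44 RPKM in unstimulated Tregs. For IL-2, values were 4.16, 10.1 and 7.72 at 90 min and 2.26, 7.46 and 3.71 at 4 hr. For IL-2-REH, values were 3.99, 10.4 and 7.31 at 90 min and 2.11, 7.14 and 3.36 at 4 hr. Replicates 2 and 3 were higher in every stimulated group than in unstimulated cells, and replicate 1 was lower. At 90 min, the log2 fold changes of Dusp16 were 1.65 ± 0.63 for IL-2 and 1.61 ± 0.63 for IL-2-REH (edgeR, adjusted p = 0.271 and 0.403). Without unstimulated replicate 1, they were 2.63 ± 0.64 and 2.60 ± 0.64 (edgeR, adjusted p = 0.0175 and 0.0197). At 4 hr, leaving it out moved them from 0.78 to 1.76 (IL-2) and from 0.63 to 1.61 (IL-2-REH), and neither passed. Dusp16 was the only member with 2 transcripts in the files, and it overlaps Gm36328 and 1700055D16Rik in the annotation.

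Spry1 was 12.9, 11.3 and 10.9 RPKM in unstimulated Tregs. For IL-2, its level was 8.82, 16.5 and 13.5 at 90 min and 2.75, 8.87 and 3.90 at 4 hr. For IL-2-REH, its level was 6.69, 17.9 and 15.8 at 90 min and 2.12, 8.56 and 5.33 at 4 hr. Both 90 min groups overlapped the unstimulated range, and both 4 hr groups lay below it. The log2 fold change at 4 hr was -1.16 ± 0.52 for IL-2, which passed only with the replicate block (edgeR, adjusted p = 0.260 without it and 0.0400 with it), and -1.16 ± 0.52 with IL-2-REH, which did not pass (edgeR, adjusted p = 0.347 without the block and 0.0550 with it). Spry2 lay between 0.170 and 1.15 RPKM in all Treg libraries, on 17 to 178 reads, and a change in it was not detectable at this depth and spread (edgeR, adjusted p from 0.714 to 0.933 in the comparisons with unstimulated cells).

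**Figure D2:**
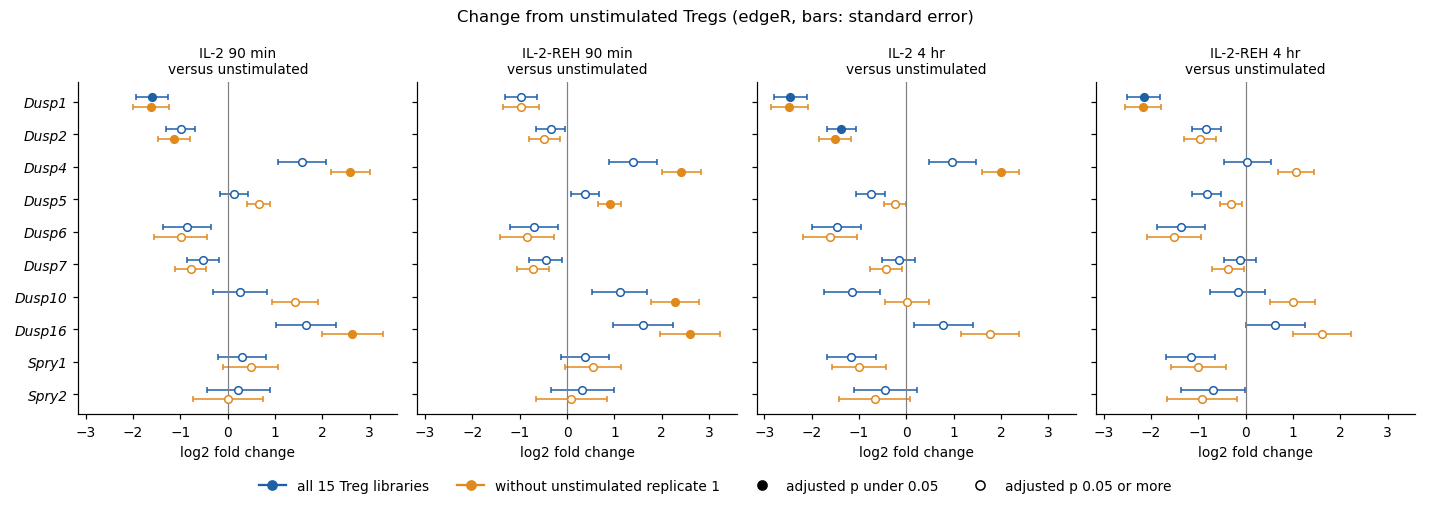
Log2 fold change from unstimulated Tregs with its standard error for each gene, in 1 panel per stimulus and time, with all 15 Treg libraries (blue) and without unstimulated replicate 1 (orange), filled where the adjusted p was under 0.05. Dusp1 is at -1.60, -0.96, -2.45 and -2.15 in the 4 panels from left to right, and Dusp4 at 90 min with IL-2 moves from 1.56 to 2.59 without unstimulated replicate 1.

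Counted over the family, 1 of 10 members was called with IL-2 at 90 min (Dusp1, lower), beside 0.853% of all genes tested. With IL-2 at 4 hr, 2 of 10 were called (Dusp1 and Dusp2, lower), beside 2.27% of all genes. With IL-2-REH, no member (0 of 10) was called at 90 min, beside 0.0933% of all genes, and 1 of 10 at 4 hr (Dusp1, lower), beside 0.313%. At an unadjusted p under 0.05, 1704 genes passed with IL-2-REH at 90 min, among them Dusp1, Dusp4 and Dusp16, and no member was called there by DESeq2 or limma. The median log2 fold change of the 10 genes at 90 min was 0.18 (IL-2) and 0.35 (IL-2-REH), and at 4 hr -0.95 and -0.76. With the replicate block, the medians were 0.10 and 0.068 at 90 min and -0.96 and -0.81 at 4 hr, whereas without the block the median of all genes lay between -0.062 and 0.014. The 4 comparisons share the unstimulated libraries, so their directions are not independent of each other.

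Which members were called depended on how the unstimulated replicates were used. With the replicate number as a block, 2 of 10 were called with IL-2 at 90 min (1.83% of all genes), 4 of 10 with IL-2 at 4 hr (6.92%) and 3 of 10 with IL-2-REH at 4 hr (3.03%), all lower than in unstimulated cells. Without unstimulated replicate 1, Dusp1, Dusp2, Dusp4 and Dusp16 were called with IL-2 at 90 min (12.9% of 15494 genes), Dusp1, Dusp2 and Dusp4 with IL-2 at 4 hr (8.87%), Dusp4, Dusp5, Dusp10 and Dusp16 with IL-2-REH at 90 min (12.1%), and Dusp1 with IL-2-REH at 4 hr (6.93%). In these fits Dusp1 and Dusp2 were lower and Dusp4, Dusp5, Dusp10 and Dusp16 higher than in unstimulated cells. The fits without unstimulated replicate 1 kept the stimulated libraries of replicate 1. The part of differences between replicates in their calls was not tested.

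Setting the cytokines side by side asked whether the partial agonist left these genes at another level than the full agonist. It comprised 20 gene-by-time comparisons, at the same dose and time, and the p-values were adjusted over all genes. No member was called at 90 min (0 of 10, beside 0.0133% of all genes) or at 4 hr (0 of 10, beside 0.0267%), and no member had an unadjusted p under 0.05 at either time in the edgeR fit, while 149 and 558 of all genes had one. DESeq2 also called no member, beside 14 and 58 of 20231 genes. Dusp1 was higher with IL-2-REH in all 3 same-numbered pairs at 90 min, with a log2 difference of 0.64 (95% confidence interval -0.085 to 1.36, edgeR, adjusted p = 0.9999), and of 0.30 at 4 hr (-0.42 to 1.02). Dusp2 was higher in all 3 pairs at both times, by 0.65 (-0.0056 to 1.31) at 90 min and by 0.54 (-0.12 to 1.20) at 4 hr. Dusp10 was higher in all 3 pairs at both times as well, by 0.86 (-0.40 to 2.11) and 0.99 (-0.27 to 2.24). Dusp4 was lower in all 3 pairs, by a log2 difference of -0.17 (-1.24 to 0.90) at 90 min and -0.94 (-2.01 to 0.14) at 4 hr. All these intervals, from the fit without the block, include 0 and also differences of over 1 on the log2 scale, so that an equal response was not shown. With the replicate block, no member was called either, but the interval of Dusp2, not adjusted for the number of genes, excluded 0 at 90 min (log2 difference 0.63, 0.29 to 0.98, edgeR, adjusted p = 0.819) and at 4 hr (0.56, 0.21 to 0.91, edgeR, adjusted p = 0.373). That of Dusp1 did so at 90 min (0.63, 0.057 to 1.20, edgeR, adjusted p = 0.9999). For Dusp5, Dusp6, Dusp7, Dusp16, Spry1 and Spry2, the differences without the block ranged from -0.25 to 0.25, with intervals as wide as or wider than that of Dusp5 at 90 min, -0.40 to 0.90. The change of the difference between IL-2-REH and IL-2 from 90 min to 4 hr was called for no member (0 of 10) and for 0% of all genes, with 47 genes at an unadjusted p under 0.05 in the edgeR fit and no gene called by DESeq2.

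**Figure D3:**
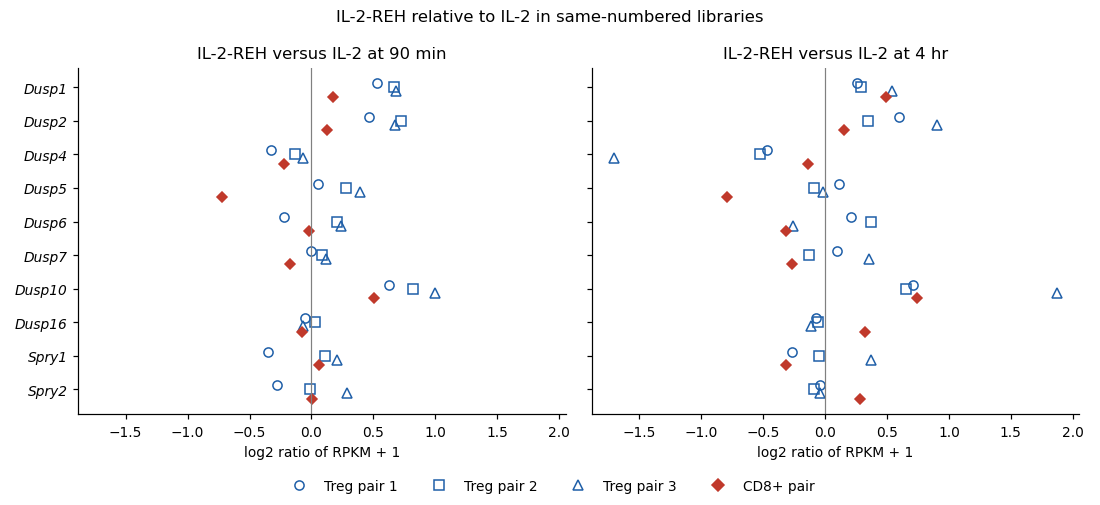
Log2 ratio of RPKM + 1 of IL-2-REH to IL-2 for each gene at 90 min (left) and 4 hr (right), with open blue symbols for the 3 same-numbered Treg pairs and a red diamond for the CD8+ pair. The Treg pairs of Dusp10 lie between 0.63 and 0.997 at 90 min and between 0.65 and 1.87 at 4 hr, and those of Dusp4 are below 0 at both times.

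Between 90 min and 4 hr, 9 of the 10 genes had a lower estimate at the later time with either cytokine, Dusp7 being the exception. The median log2 fold change of all genes was 0.033 (IL-2) and 0.038 (IL-2-REH). Members were measured in the same libraries, so their directions are not independent. No member was called with IL-2 (0 of 10, beside 0% of all genes) or with IL-2-REH (0 of 10, beside 0%). At an unadjusted p under 0.05, 2551 and 2188 of all genes passed in these edgeR fits. DESeq2 called no member for IL-2 and 2 for IL-2-REH, beside 365 and 253 of 20231 genes. The log2 differences of Spry1 were -1.47 ± 0.52 for IL-2 and -1.54 ± 0.52 for IL-2-REH, and those of Dusp10 were -1.41 ± 0.59 and -1.28 ± 0.59. For Dusp1, they were -0.85 ± 0.34 and -1.19 ± 0.34. Without unstimulated replicate 1, Dusp5 was the member called with IL-2-REH, beside 0.458% of all genes.

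In CD8+ T cells, 8 of the 10 genes reached a mean of 1 RPKM over the 5 libraries, Dusp4 and Spry1 being below it. With 1 library per group no test was possible, so genes were counted past an absolute log2 ratio of RPKM + 1 of 1, and the intervals given are exact 95% intervals that cover counting error only. All members past this fold in a comparison with the unstimulated library were lower. Dusp16 was higher but stayed under the fold with 1 added to each RPKM. With IL-2 at 90 min, the members past the fold were Dusp1, Dusp5, Dusp6, Dusp10 and Spry2, which is 5 of 8, beside 7.24% of the 10021 expressed genes. With IL-2 at 4 hr they were the same 5 and Dusp2, which is 6 of 8, beside 4.71%. With IL-2-REH, 5 of 8 passed at 90 min (Dusp1, Dusp5, Dusp6, Dusp7 and Spry2), beside 8.57%, and 5 of 8 at 4 hr (Dusp1, Dusp2, Dusp5, Dusp6 and Spry2), beside 6.11%. All 4 comparisons share the single unstimulated library. Its summed RPKM was 33.5 for 4 natural killer cell markers, compared with 13.1 to 17.2 in the stimulated CD8+ libraries. For 6 B cell markers it was 10.8 (3.34 to 5.41) and for 5 macrophage or monocyte markers 36.6 (19.3 to 23.6). For 4 T cell markers, Cd8a, Cd8b1, Cd3e and Cd3g, it was 1286 (568 to 789). As this sum includes Cd3e and Cd3g, it does not measure CD8 genes alone, and it was 343 to 553 in unstimulated Tregs. The sum of 6 Treg markers was 47.6, compared with 93.0 and 79.3 at 90 min and 4 hr of IL-2. With IL-2-REH, it was 43.7 and 37.4 at these times. These markers include Il2ra, which was past the fold with IL-2 at both times. The part of these differences in the counts was not tested.

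Dusp1 had the largest of these ratios. Its level was 57.4 RPKM in the unstimulated CD8+ library, 5.99 and 2.53 with IL-2 at 90 min and 4 hr, and 6.89 and 3.95 with IL-2-REH. The stimulated level was thus 0.104 (0.0968 to 0.112) of the unstimulated level with IL-2 at 90 min and 0.0441 (0.0394 to 0.0492) at 4 hr, and 0.12 (0.112 to 0.129) and 0.0689 (0.0631 to 0.0751) with IL-2-REH. Spry2, near the limit of detection in Tregs, was 6.12 RPKM in unstimulated CD8+ T cells and between 0.658 and 1.08 in the other 4 libraries. Dusp6 was 9.21 RPKM before stimulation and 1.52, 2.26, 1.49 and 1.62 with IL-2 at 90 min and 4 hr and IL-2-REH at 90 min and 4 hr. Dusp5 was 32.3 RPKM before stimulation, 13.3 and 7.45 with IL-2, and 7.68 and 3.87 with IL-2-REH.

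Dusp2, the most abundant member in unstimulated CD8+ T cells at 112 RPKM, was 64.2 and 24.5 at 90 min and 4 hr of IL-2, and 70.1 and 27.4 at the same times of IL-2-REH. It was the member past the fold between 4 hr and 90 min with IL-2 (1 of 8, beside 2% of all genes) and with IL-2-REH (1 of 8, beside 1.89%). Dusp10 was 24.6 RPKM before stimulation, 11.02 and 7.61 with IL-2, and 16.1 and 13.4 with IL-2-REH. Dusp7 was 12.8 RPKM before stimulation, 6.13 and 10.99 with IL-2, and 5.32 and 8.96 with IL-2-REH, so that it was lowest at 90 min. Dusp16 was the exception in direction, with 0.860 RPKM before stimulation and between 1.59 and 2.47 in the 4 stimulated libraries, on 270 reads and 552 to 877 reads. Its RPKM ratio to the unstimulated library was 2.87 (2.50 to 3.30) with IL-2 at 90 min and 1.85 (1.60 to 2.15) at 4 hr. With IL-2-REH, the ratio was 2.67 (2.32 to 3.08) and 2.61 (2.28 to 3.01). The single Dusp4 values were 1.68 RPKM before stimulation and between 0.341 and 0.747 after it, and those of Spry1 were 1.12 and between 0.277 and 0.587.

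**Figure D4:**
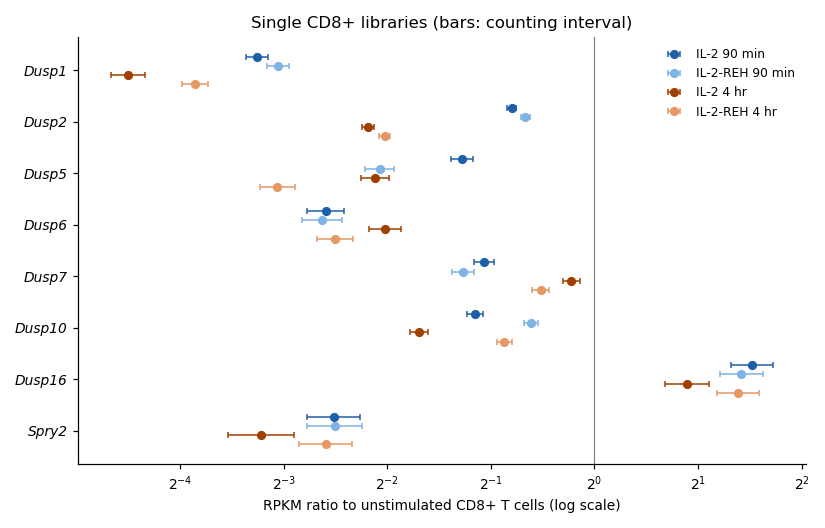
Ratio of the RPKM of each stimulated CD8+ library to that of the unstimulated CD8+ library on a log axis, for the 8 genes with a mean of at least 1 RPKM, with bars for the exact 95% interval of counting error. Dusp1 lies at 0.0441 with IL-2 at 4 hr, and Dusp16 is the only gene to the right of 1 in all 4 libraries.

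Between IL-2-REH and IL-2, no CD8+ member was past the fold at 90 min (0 of 8, beside 0.868% of all genes) or at 4 hr (0 of 8, beside 2.23%). Dusp10 had a ratio of IL-2-REH to IL-2 of 1.46 (1.38 to 1.55) at 90 min and 1.77 (1.65 to 1.88) at 4 hr, and Dusp5 had ratios of 0.575 (0.518 to 0.638) and 0.520 (0.452 to 0.597). The ratio of Dusp1 was 1.15 (1.04 to 1.27) and 1.56 (1.36 to 1.79), and that of Dusp6 was 0.977 (0.824 to 1.16) and 0.717 (0.620 to 0.830). These intervals hold no error between cultures, so a difference between the cytokines in CD8+ T cells was not tested. For reference, of 12 STAT5 or IL-2 target genes, 9 were past the fold lower with IL-2-REH than with IL-2 at each time in CD8+ T cells, and 1 higher.

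Set beside Tregs of the same treatment, the CD8+ library lay outside the range of the 3 Treg libraries for 7 of 10 members in unstimulated cells, a share to be read beside the 56.7% of 10825 expressed genes that did so. For IL-2, it did so for 8 of 10 at 90 min (63.2% of all genes) and 7 of 10 at 4 hr (57.2%), and for IL-2-REH for 8 of 10 at both times (64.7% and 64.6%). Dusp1, Dusp4, Dusp5 and Spry1 were below the Treg range in all 5 groups. For Dusp4, the mean of the Treg libraries was 40.3 times the CD8+ level in unstimulated cells and 258 times with IL-2 at 90 min, on 250 and 126 CD8+ reads. For Spry1, it was 10.4 and 35.6 times the CD8+ level, and for Dusp1 4.36 and 12.5 times. Spry2 was above the Treg range in unstimulated CD8+ T cells, at 8.84 times the Treg mean, and with IL-2-REH at 4 hr. Dusp7 was above it in the unstimulated and the IL-2 4 hr groups, and Dusp2 in both 90 min groups. Dusp6 was 9.21 RPKM in the unstimulated CD8+ library, inside the unstimulated Treg range of 6.43 to 11.5. Since the cell types came from different mice and isolation methods, these factors and the cell type cannot be told apart.

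The rest of the pathway was read from lists chosen with earlier results of these data known. In Tregs, none of the 9 other MAPK phosphatase and Sprouty or Spred genes (0 of 9), 12 RAS GTPase-activating and adaptor inhibitors (0 of 12), 16 genes of the RAS-ERK core (0 of 16) or 12 tested genes of the p38 and JNK core (0 of 12) was called by edgeR in any of the 4 comparisons with unstimulated cells. At an unadjusted p under 0.05, 1 to 2, 2 to 5, 3 to 4 and 1 to 4 of these genes passed, respectively. Of all 15009 genes, 2068 and 2657 did so with IL-2 at 90 min and 4 hr, and 1704 and 1998 with IL-2-REH. With the replicate block, 1 other phosphatase, Dusp22, was called higher with IL-2 at 4 hr (log2 fold change 0.98, edgeR, adjusted p = 0.0210), and Rasal1, a RAS GTPase-activating protein, was called lower at 4 hr of either cytokine (log2 fold changes -2.46 and -2.43, edgeR, adjusted p = 0.000366 and 0.00115). In the core lists, the block added Mapk7 and Map3k5 as higher at 4 hr of IL-2 (log2 fold changes 0.95 and 0.65) and Ksr1 as lower at 4 hr of IL-2-REH (-0.96). Of 19 tested immediate early genes that respond to MAPKs, 0 were called by edgeR at 90 min of either cytokine, with 9 (IL-2) and 6 (IL-2-REH) at an unadjusted p under 0.05, and the block called Fos lower with IL-2 (log2 fold change -1.88, edgeR, adjusted p = 0.0304). At 4 hr, 3 of 19 were called lower with IL-2, namely Fos (log2 fold change -2.66 ± 0.61), Junb (-1.46 ± 0.32) and Zfp36 (-1.99 ± 0.48), and 1 with IL-2-REH, Junb (-1.78 ± 0.33). With the replicate block, 5 were called lower and 1 higher at 4 hr of IL-2, and 6 lower and 1 higher at 4 hr of IL-2-REH. Of 12 STAT5 or IL-2 targets, 3, 4, 1 and 0 were called higher at 90 min of IL-2, 4 hr of IL-2, 90 min of IL-2-REH and 4 hr of IL-2-REH, respectively, and 4, 6, 1 and 3 with the block. Cish, Socs1 and Socs2 were those called by the block at 4 hr of IL-2-REH. In CD8+ T cells, 7 of 16 expressed immediate early genes were past the fold lower with IL-2 at 90 min and 7 of 16 at 4 hr. Among all 10021 expressed genes, 444 and 341 were. With IL-2-REH, 8 and 10 of 16 were past the fold lower, beside 612 and 434 of all genes. At 90 min, 1 of the 16 was past the fold higher with each cytokine.

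Across the 20 libraries, the genes whose log2(RPKM + 1) was most like that of a member were sought among 9669 genes expressed in both cell types. These correlations are descriptions, since the points share cell type and treatment. Dusp1 was most like Junb (r = 0.9748), Fos (r = 0.965) and Ppp1r15a (r = 0.949), of which the first pair encode AP-1 subunits. Dusp4 was most like Nfil3 (r = 0.983), Dusp5 like Isg15 (r = 0.974), Dusp10 like Cxcr4 (r = 0.954), Dusp16 like Arl5b (r = 0.962) and Spry1 like Plk3 (r = 0.949). For Dusp1, Dusp4, Dusp5, Dusp10, Dusp16 and Spry1, which were higher in Tregs than in CD8+ T cells in most groups, the difference between cell types is part of the likeness. The highest values were lower for Dusp7 (Dcps, r = 0.924), Spry2 (Actn2, r = 0.859) and Dusp2 (Tsc22d3, r = 0.850). Within the 15 Treg libraries, Dusp1 was most like Dusp2 (r = 0.859) and Dusp6 (r = 0.845) among the members, and Dusp4 was most like Dusp16 (r = 0.827). The lowest value between members was that of Dusp7 with Dusp16 (r = -0.799).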

How the data were processed

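RNA from 15 Treg and 5 CD8+ T cell libraries was sequenced by the authors as single-end reads, which were mapped to mm10 (GRCm38). The submitters' processing notes name Bowtie2 2.2.6, TopHat2 2.1.1, SAMtools 0.1.8 and bedtools 2.25.0. The authors deposited, for each of 31682 RefSeq transcripts, the raw read count on its exons, without normalization, and the RPKM, scaled by the authors to exon length and mapped reads. Whether strand was used is not given in the sources used here.

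The transcript with the most reads over 20 libraries stood for each gene. No library pair was identical (0 pairs). Treg counts were tested with edgeR 4.0.16 (TMM, filterByExpr, quasi-likelihood test, 1 mean per group, 15 libraries) in R 4.3.3, and p-values were adjusted over 15009 genes by the Benjamini-Hochberg method, with calls at an adjusted p under 0.05. Replicate numbers come from the labels, and the deviations from the group means of libraries that share a number were positively correlated across genes in every comparison, the lowest correlation being 0.121, so that the replicate block is given wherever it changed a call. CD8+ ratios used RPKM + 1 and only genes whose RPKM averaged 1 or more over the 5 libraries, without a test. Alternatives were the replicate block, RLE factors, DESeq2 1.42.0, limma 3.58.1 on log2(RPKM + 1) or (RPKM + 0.1), no filter, only the groups compared, the longest transcript, and leaving out replicates. The replicate block without replicate 1 was chosen after seeing the data. The scripts were tested on simulated data. Python 3.11.15, pandas 2.3.3, scipy 1.17.1 and matplotlib 3.10.9 were used.

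The members and gene lists were chosen with earlier results of these data known. All 10 members are named, other genes where they were called or were the most correlated with a member, and promoters of Dusp1 and Dusp2, called over all libraries, with Dusp5 and Dusp10 for comparison, chosen after their values were seen. Dusp22, Rasal1, Mapk7, Map3k5 and Ksr1 were named after their values in the block fit were seen.
The gene most correlated with Dusp6 is not reported here.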

Additional observations from a re-analysis of the deposited data

Results flagged for a closer look

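Every member was searched in each comparison with unstimulated cells, between the cytokines and between the times. In 7 cases all 3 same-numbered Treg pairs moved one way and the CD8+ pair moved the other, as log2 ratios of RPKM + 1. With 1 CD8+ pair, the difference between the cell types was not tested in any of these cases. Among the 9669 genes expressed in both cell types, 3.97% to 15.3% had such opposite signs, depending on the comparison. Dusp4, Spry1 and Spry2 were not among these genes. Whether members had opposite signs more often than all genes was not tested.

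Dusp4 at 90 min was higher than in unstimulated cells with IL-2 in Treg pairs 1 to 3, with log2 ratios of 0.55, 2.99 and 1.80, and lower in CD8+ T cells, with -0.62. With IL-2-REH, the Treg ratios were 0.22, 2.86 and 1.73 and the CD8+ ratio was -0.84. Dusp4 stood below a mean of 1 RPKM in CD8+ T cells. Among 9669 genes expressed in both cell types, 3.97% showed such opposite signs for IL-2 and 5.12% for IL-2-REH.

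When the cytokines were compared at 90 min (IL-2-REH over IL-2), the Treg ratios of Dusp5 were 0.049, 0.28 and 0.39 and the CD8+ ratio was -0.72, where 15.3% of all genes had opposite signs. At 4 hr, the Treg ratios of Dusp16 were -0.071, -0.057 and -0.11 and the CD8+ ratio was 0.32, and those of Spry2 were -0.044, -0.093 and -0.039 with a CD8+ ratio of 0.28, where 11.4% of all genes had opposite signs. The Treg ratios of both genes are close to 0.

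Between 4 hr and 90 min of IL-2, the Treg ratios of Dusp6 were -0.70, -0.13 and -0.46 and the CD8+ ratio was 0.37. Those of Spry1 were -1.39, -0.83 and -1.57 with a CD8+ ratio of 0.22, on 99 and 63 CD8+ reads. Opposite signs were found for 6.71% of all genes in this comparison.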

How the results depend on the processing

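The counts of members called in Tregs were the same with RLE factors, both limma fits, no filter and the longest transcript, and no member was called between the cytokines, or for the change of that difference over time, under any setting. With the replicate block, in which same-numbered libraries were paired, 2, 4 and 3 members were called with IL-2 at 90 min, IL-2 at 4 hr and IL-2-REH at 4 hr, and the block changed no other call among the members. DESeq2 called 3 members with IL-2 at 90 min and 2 between 4 hr and 90 min of IL-2-REH, beside 553 and 253 of 20231 genes. With only the groups compared in the fit, 0 members were called in each of the 3 comparisons that had a call. Of all genes, 31 of 13713 were called with IL-2 at 90 min, 15 of 13899 with IL-2 at 4 hr and 1 of 13794 with IL-2-REH at 4 hr. When replicates were left out in turn, between 0 and 6 members were called with IL-2 at 90 min, 0 and 5 with IL-2 at 4 hr, 0 and 5 with IL-2-REH at 90 min, 0 and 3 with IL-2-REH at 4 hr, 0 and 1 between 4 hr and 90 min of IL-2, and 0 and 2 between those times of IL-2-REH. The upper ends came from leaving out replicate 1 of every group. In the same order, that fit called 2509, 1937, 2269, 1545, 625 and 574 of 14477 genes. The replicate block without replicate 1 called 6, 6, 6 and 4 members in the comparisons of IL-2 at 90 min, IL-2 at 4 hr, IL-2-REH at 90 min and IL-2-REH at 4 hr with unstimulated cells, and 1 and 2 between the times of IL-2 and IL-2-REH. Of the 14477 genes, it called 3292, 2838, 3025 and 2289 in the former comparisons and 1185 and 1090 in the latter. Of the changes called in the fit over all libraries, with the block or without unstimulated replicate 1, which were the ones followed through every setting, 1 reversed in direction, the log2 fold change of Dusp5 with IL-2-REH at 90 min, which was 0.38 and ranged from -0.0058 without replicate 2 to 1.0005 without replicate 1, and the cause was not tested. Among the changes that none of these fits called, those of Dusp10 at 4 hr reversed without unstimulated replicate 1, from -1.15 to 0.0073 (IL-2) and from -0.16 to 0.996 (IL-2-REH), and the difference of Spry2 between the cytokines at 90 min moved from 0.092 to -0.081 with the replicate block, as did the change over time of that difference for Dusp6, from -0.062 to 0.028. In CD8+ T cells, a threshold of 2 left 2, 3, 2 and 2 members with IL-2 at 90 min and 4 hr and IL-2-REH at 90 min and 4 hr, and 0 between the times of either cytokine, since fewer ratios pass a higher threshold. A pseudocount of 0.1 gave 2 members between the times of IL-2. With it, Dusp16 was past the fold as higher with IL-2 at 90 min and with IL-2-REH at both times. The share of all genes past the fold was not counted for these alternative CD8+ settings. Fits with fewer libraries have fewer degrees of freedom, and the single CD8+ library per group limits every CD8+ value to counting error.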
